A study of Mus musculus with 3 samples.

Results

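The 37 genes of the mouse mitochondrial genome were examined in RNA from the nuclear fraction of macrophages. They were taken as every gene whose symbol in the deposited tables starts with mt-, which gave 13 mRNAs, 2 rRNAs and 22 tRNAs of 55536 annotated genes, and all 37 lie on chromosome M. The cells were bone marrow-derived macrophages of C57BL/6J mice, grown in culture from marrow progenitors. They had been treated for 15 min with Lipid A at 100 ng/ml, which is the membrane anchor of lipopolysaccharide and the portion that macrophages sense. There is 1 group of 3 libraries, numbered as biological replicates 1 to 3, and no untreated, later or whole-cell library was analysed here. Values therefore describe this fraction at this time, and no comparison with unstimulated cells was possible. The fraction is given as nucleus in one label and as nucleoplasmic in another, and sex and age were not collected. Ribosomal RNA was depleted. Replicates 1 and 3 were made from 1 µg of RNA and replicate 2 from 500 ng. The labels record separate biosamples but 1 donor entry, so the spread between libraries may be technical. The gene tables held 18516063, 17345644 and 20947006 counts in annotated genes for replicates 1 to 3.

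The mitochondrial genome is a small circle whose genes lie end to end, nearly without gaps. Both strands are copied into long precursors, from which tRNAs are cut out, and the cuts at tRNAs release most mRNAs and rRNAs. Its mRNAs encode core subunits of the respiratory chain and ATP synthase, its rRNAs form the mitochondrial ribosome, and its tRNAs serve translation there. All other respiratory subunits, and the enzymes that copy and process mitochondrial RNA, come from nuclear genes.

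The annotation (GENCODE M21, build GRCm38) places 28 of the 37 genes on the plus strand of chromosome M. The minus strand holds mt-Nd6 and 8 tRNAs. Several genes overlap, and reads in an overlap belong to both. The 3 longest overlaps are shown with 12 to 18 flanking bases, on the plus strand 5′ to 3′, with the shared bases in capitals.
mt-Atp8 and mt-Atp6, chrM:7915-7981: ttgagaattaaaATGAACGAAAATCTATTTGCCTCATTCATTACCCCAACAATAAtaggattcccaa
mt-Nd4l and mt-Nd4, chrM:10149-10191: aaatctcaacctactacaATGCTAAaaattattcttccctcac
mt-Nd5 and mt-Nd6, chrM:13537-13580: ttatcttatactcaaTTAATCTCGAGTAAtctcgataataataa
The first overlap covers 43 bases and starts with the ATG of mt-Atp6. The second covers 7 bases and starts with the ATG of mt-Nd4. The third covers 14 bases of genes on opposite strands. Whether the counting used strand is not stated. If it did not, reads of the opposite strands cannot be told apart there or at any other gene of this genome.

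A second property of the sequences bears on 7 of the 13 mRNAs, and most on 5 of them. A stretch of chromosome 1 (chr1:24611535-24616197, minus strand) carries 7 annotated pseudogenes that copy parts of the mitochondrial genome. Gm28661 matched mt-Co2, Gm10925 matched mt-Atp6, Gm28437 matched mt-Co3 and Gm10222 matched mt-Nd4l over the pseudogene's whole annotated length with 100% identity. Gm28439 matched 876 bases of mt-Nd4, also with 100% identity. The other two copies differ from the mitochondrial gene at 1 aligned base each, shown in capitals on the gene's own strand 5′ to 3′, with positions counted from 1 at the first base of the mitochondrial gene.
mt-Nd3, chrM:9459-9476: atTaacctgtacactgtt
Gm28438, chr1:24613102-24613119: atCaacctgtacactgtt
mt-Co1, chrM:6390-6408: ggaAttgttttatccaact
Gm29216, chr1:24616170-24616188: ggaTttgttttatccaact
The difference is T3C in the first pair and A1066T in the second, where the copy covers 483 aligned bases. Of all runs of 31 bases in the mitochondrial gene, a share also occurred, on either strand, in transcripts of genes outside chromosome M. That share was 98.1% to 100% for mt-Nd3, mt-Nd4l, mt-Atp6, mt-Co3 and mt-Co2. The share was 63.9% for mt-Co1 and 62.8% for mt-Nd4. It was 16.8% for mt-Nd5, 13.5% for mt-Nd2, at most 7.47% for mt-Atp8, mt-Nd6 and mt-Cytb, 2.71% for mt-Rnr2, and 0 for mt-Nd1 and mt-Rnr1. For the first 5 mRNAs, and for the shared part of mt-Nd4 and mt-Co1, the tables therefore split reads between gene and copy by a model. Levels of gene and copy together are given beside those of the gene.

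All 37 genes together held 6.74% of the counts of annotated genes in replicate 1, 8.37% in replicate 2 and 6.74% in replicate 3, or 7.29% ± 0.939 (SD, n = 3). The near-equal totals of replicates 1 and 3 were made up differently. The mRNAs held 6.62%, 8.31% and 3.54% in replicates 1, 2 and 3. The rRNAs held 0.124%, 0.0575% and 3.20%. The chromosome 1 copies, which are not members, held a further 1.83%, 2.24% and 0.785%, and followed the mRNAs in being lowest in replicate 3. Exact 95% binomial intervals around these shares were at most 0.0145 percentage points to either side and cover counting error only. Differences between libraries set single libraries of 1 group against each other and have no replicate check.

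**Figure D1:**
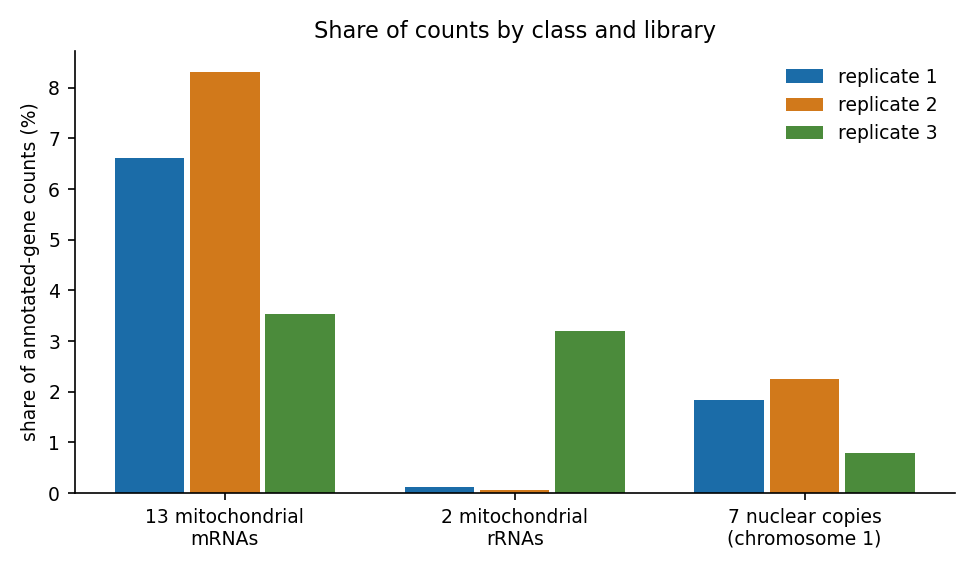
Share of annotated-gene counts (%, vertical axis) held by the 13 mitochondrial mRNAs, the 2 mitochondrial rRNAs and the 7 nuclear copies on chromosome 1; each bar is 1 library. The rRNA bar of replicate 3 stands at 3.20%, while its mRNA bar, at 3.54%, is the lowest of the 3.

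The 2 rRNAs are the small-subunit rRNA mt-Rnr1 (chrM:70-1024) and the large-subunit rRNA mt-Rnr2 (chrM:1094-2675), next to each other at the start of the genome with the valine tRNA between them. The libraries were depleted of rRNA, and whether the depletion covered mitochondrial rRNA is not stated in the labels. mt-Rnr1 had 273320 counts in replicate 3, against 10567 in replicate 1 and 5917 in replicate 2. mt-Rnr2 had 396975 counts in replicate 3, against 12332 in replicate 1 and 4063 in replicate 2. For both, replicate 3 lies above the other two without overlap. On TMM-scaled CPM, which corrects for differences in library composition, mt-Rnr1 was 33.4-fold and mt-Rnr2 54.3-fold above the geometric mean of the other libraries.

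Nuclear genes of the type rRNA moved in the same order, with 0.242% of counts in replicate 3, against 0.0575% in replicate 1 and 0.00444% in replicate 2. By the effective lengths in the gene tables, replicate 3 also had a mean fragment length of 187 nucleotides, against 228 in replicate 1 and 222 in replicate 2. The second transcript tables, made by another method, order the libraries otherwise. There mt-Nd1, of 957 bases, had an effective length of 774, 728 and 782 in replicates 1, 2 and 3. In the gene tables it was 730, 736 and 771. The RNA input of replicate 3 was that of replicate 1. The part of these differences in the result was not tested. Counts of mitochondrial rRNA per count of mitochondrial mRNA were 0.903 in replicate 3, against 0.0187 in replicate 1 and 0.00692 in replicate 2. With the chromosome 1 copies added to the mRNAs the same ratios were 0.739, against 0.0146 and 0.00545.

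Per length, the larger rRNA was the lower of the pair in each library. In TPM, a length-corrected relative abundance, mt-Rnr2 was at 359, 143 and 8829 in replicates 1, 2 and 3, against 573, 387 and 11036 for mt-Rnr1. The log2 ratio of mt-Rnr2 to mt-Rnr1 was -0.81 ± 0.57 (SD, n = 3). It was below 0 in 3 of 3 libraries, and the two-sided exact sign-flip permutation test gave p = 0.25, the smallest value that 3 libraries allow. Not divided by length, the ratio turned to 0.0730 on the log2 scale.

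Among the mRNAs, the genes of complex I, the NADH dehydrogenase that feeds electrons into the chain, are described first. Together they took 38.3% ± 2.75 of the counts of mRNAs and chromosome 1 copies (SD, n = 3). mt-Nd1 had 104693, 139099 and 52294 counts in replicates 1, 2 and 3, mt-Nd2 51205, 78679 and 25500, and mt-Nd4 128106, 158304 and 67264. mt-Nd5, the longest of them, had 177500, 227125 and 108729. In these 4 genes replicate 2 is highest and replicate 3 lowest. This order held for mt-Nd4 with Gm28439 added, at 146214, 221301 and 86290 counts in replicates 1, 2 and 3. The short mRNAs mt-Nd3 and mt-Nd4l had 3395, 4729 and 4597 counts, and 8135, 5075 and 9450 counts. With Gm28438 and Gm10222 added they had 11041, 12573 and 5695 counts, and 18832, 24731 and 13564 counts, which gave them the order of the other complex I mRNAs. Both members thus changed their order of libraries once the copy was counted.

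mt-Nd6 (chrM:13552-14070), the complex I subunit encoded on the minus strand, differed from this pattern. It had 52138, 52656 and 50024 counts in replicates 1, 2 and 3. On TMM-scaled CPM it was at 2643, 2986 and 2596, with a highest-to-lowest ratio of 1.15. For the other 12 mRNAs, with copies added, that ratio lay between 1.90 and 4.30. In replicate 3, mt-Nd6 was at 0.924 of the geometric mean of the other libraries, while the other 12 were at 0.386 to 0.608. These are values of single libraries in the gene tables, and no test of the difference was made. In the second tables mt-Nd6 was spread more widely, at 2285, 2815 and 1871 CPM without TMM scaling in replicates 1, 2 and 3. The gene tables gave 2816, 3036 and 2388 on that scale. For mt-Nd5 the second tables gave 7484, 10340 and 4024. Since use of strand is not stated, it is not known whether the count of mt-Nd6 holds reads of the opposite strand.

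mt-Nd6 was also set against mt-Nd5, its plus-strand neighbour, whose 3′ end it overlaps. Per length, mt-Nd6 was at 7040, 8472 and 4664 TPM in replicates 1, 2 and 3, against 4385, 6801 and 2061 TPM for mt-Nd5. By TPM, which divides by effective length, mt-Nd6 was the higher of the pair in 3 of 3 libraries, 1.61-, 1.25- and 2.26-fold. The mean log2 ratio was 0.73 ± 0.43 (SD, n = 3), with p = 0.25 in the two-sided exact sign-flip permutation test, the smallest that 3 libraries allow. Not divided by length, the ratio was -1.67 on the log2 scale. By CPM without TMM scaling per kilobase of annotated length, mt-Nd6 was at 5425, 5849 and 4601 in replicates 1, 2 and 3. mt-Nd5 was at 5256, 7179 and 2846 on that measure. There mt-Nd6 was the lower of the pair in replicate 2, so the direction depends on the length used.

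**Figure D2:**
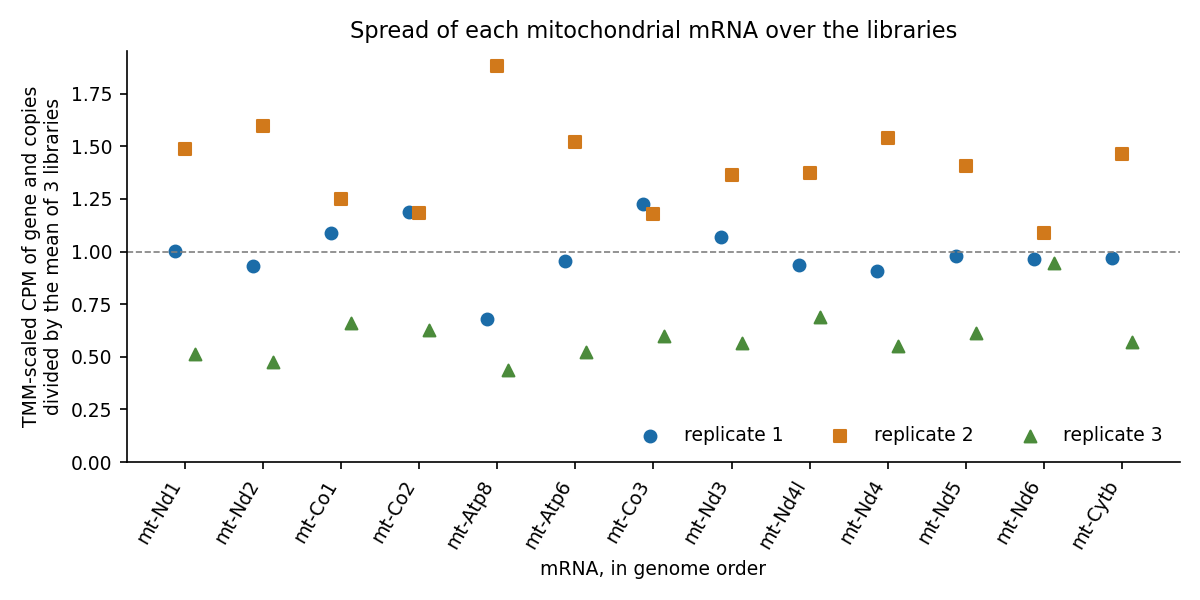
TMM-scaled CPM of each mitochondrial mRNA with its nuclear copies, divided by the mean of the 3 libraries (vertical axis), in genome order; each point is 1 library and the dashed line marks the mean. In the gene tables shown, the points of replicate 3 are the lowest for all 13 mRNAs. The 3 points of mt-Nd6 lie closest together, with a highest-to-lowest ratio of 1.15.

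Complex III, which passes electrons to cytochrome c, has 1 mitochondrial subunit, cytochrome b. Its gene mt-Cytb (chrM:14145-15288) had 111015, 149603 and 63784 counts in replicates 1, 2 and 3, or 4777, 7779 and 2067 TPM. Replicate 2 is again highest and replicate 3 lowest. It took 7.43% ± 0.640 of the counts of mRNAs and copies (SD, n = 3).

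Complex IV, cytochrome c oxidase, reduces oxygen at the end of the chain, and its 3 mitochondrial genes took 47.8% ± 4.41 of those counts (SD, n = 3). Most came from mt-Co1 (chrM:5328-6872), the subunit with the oxygen-reducing site, at 554287, 569224 and 328304 counts in replicates 1, 2 and 3, or 16592, 20636 and 7501 TPM. It alone took 34.2% ± 2.75 of the counts of mRNAs and copies. The gene table gave its partial copy Gm29216 at most 221 counts in any library.

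The other 2 subunit genes of complex IV show how far the split with nuclear copies reached. mt-Co2 (chrM:7013-7696) had 2356, 2654 and 2123 counts in replicates 1, 2 and 3 in the gene table. Its identical copy Gm28661 had 129468, 114674 and 65771. The deposited posterior SD of the mt-Co2 count was 2140, 2205 and 2175, so the gene's own count was about as large as its error in each library. In the second transcript table, made by another method, mt-Co2 had 34772, 15488 and 24051 estimated counts and Gm28661 104274, 143580 and 53285. The sum of gene, Gm28661 and a second, far lower copy on chromosome 2, Gm13341, was 139063, 159187 and 77370 in the second table, against 131839, 117370 and 67922 in the gene table. The sum thus differed between tables by 1.05-, 1.36- and 1.14-fold, while the gene's own count differed by 14.8-, 5.84- and 11.3-fold. mt-Co3 (chrM:8607-9390) had 18039, 15036 and 18515 counts of its own in the gene table, and 112183, 96494 and 53706 with Gm28437 added. Its own counts did not set replicate 3 apart, but the sums of gene and copy were lowest in replicate 3.

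The 2 mRNAs of ATP synthase, the enzyme that makes ATP from the proton gradient, overlap as shown above. mt-Atp6 (chrM:7927-8607), which encodes part of the proton channel, had 19683 counts in replicate 2, against 7050 in replicate 1 and 6557 in replicate 3. With its copy Gm10925 it had 122073 in replicate 2, against 85991 and 45806. mt-Atp8 (chrM:7766-7969), the shortest mRNA, had 19920 counts in replicate 2, against 8077 in replicate 1 and 5061 in replicate 3. Its TPM of 15363, 49252 and 4094 in replicates 1, 2 and 3 rest on an effective length of only 20.7, 19.4 and 38.4 nucleotides and are imprecise. Both genes together, copies included, took 6.46% ± 1.14 of the counts of mRNAs and copies (SD, n = 3).

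**Figure D3:**
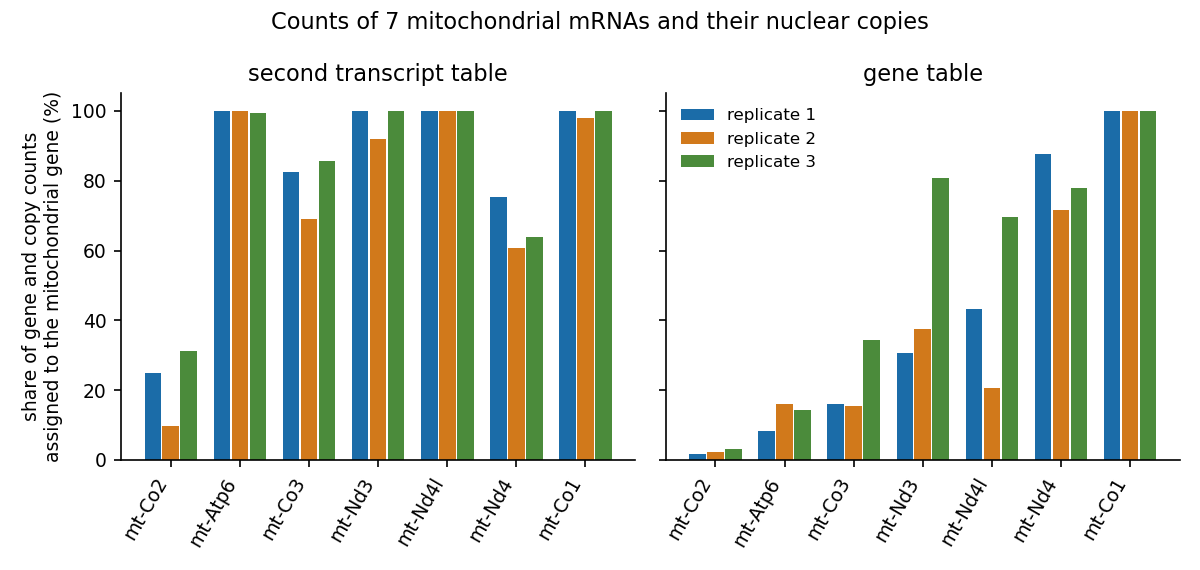
Share (%, vertical axis) of the counts of a mitochondrial mRNA and its nuclear copies that was assigned to the mitochondrial gene, for 7 mRNAs with a copy on chromosome 1, in the second transcript table (left) and in the gene table (right); each bar is 1 library. In replicate 1 mt-Atp6 received 99.9% in the second table and 8.20% in the gene table, while mt-Co1 stayed at or above 98.1% in every library of both tables.

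The order of the 13 mRNAs by level depends on these copies and on length. By mean TPM of the gene's own row, mt-Atp8 came first at 22903 ± 23504 (SD, n = 3), then mt-Co1 at 14910 ± 6728, mt-Nd6 at 6725 ± 1924 and mt-Nd1 at 5612 ± 3482. Next came mt-Cytb at 4874 ± 2857, mt-Nd5 at 4416 ± 2370, mt-Nd4 at 4237 ± 2411, mt-Nd4l at 3116 ± 717 and mt-Nd2 at 2681 ± 1854. The lowest were mt-Nd3 at 1224 ± 459, mt-Co3 at 1174 ± 184, mt-Atp6 at 1026 ± 895 and mt-Co2 at 204 ± 71.3. The ranges of neighbours in this order overlapped over the libraries, except that mt-Co2 lay below mt-Atp6 without overlap. Within each library, mt-Co1 was above mt-Nd6, mt-Nd1 above mt-Cytb, mt-Cytb above mt-Nd5, mt-Nd2 above mt-Nd3 and mt-Atp6 above mt-Co2 in 3 of 3, while the other neighbours changed places in at least 1 library. With copies added, mt-Co2 had rank 3 at 9320 ± 4399 TPM, mt-Nd4l rank 4 at 9126 ± 5421 and mt-Nd2 last at 2681 ± 1854. By RPKM of gene and copies, that is CPM divided by annotated in place of effective length in kilobases, mt-Co1 led at 16925 ± 5944, mt-Co2 had rank 2 at 8348 ± 3134, mt-Atp8 rank 11 at 2984 ± 2340 and mt-Nd3 last at 1526 ± 671. On that measure mt-Nd4l had rank 10 at 3468 ± 1311. Its effective length was only 82.0, 84.0 and 116 nucleotides in replicates 1, 2 and 3.

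**Figure D4:**
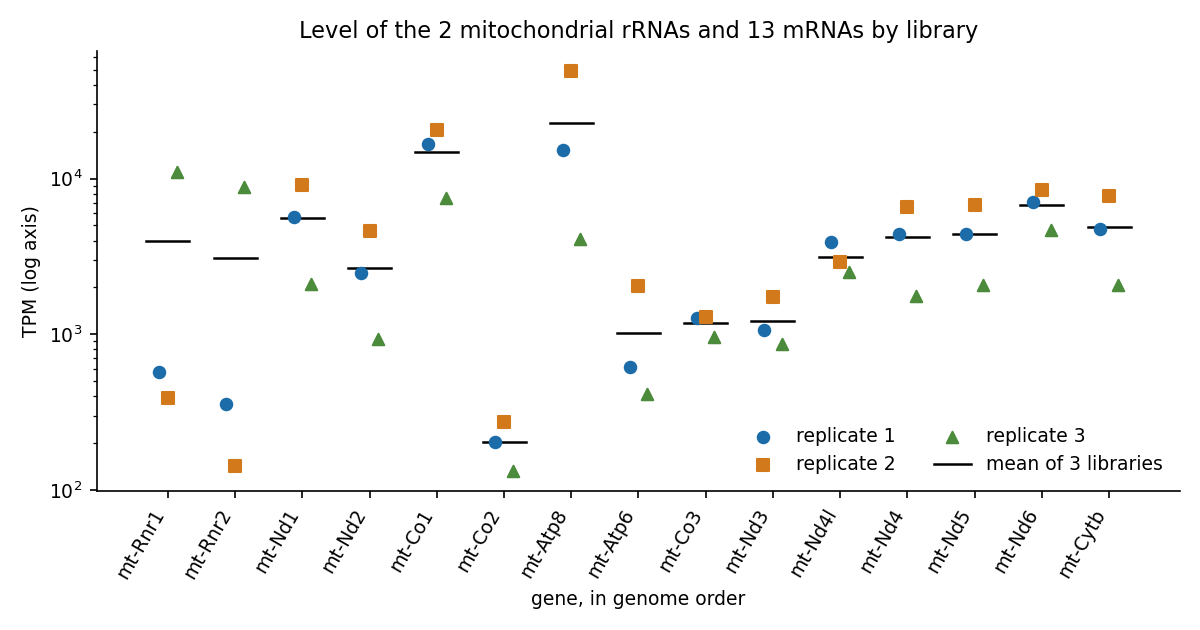
TPM (log axis) of the 2 mitochondrial rRNAs and 13 mRNAs in genome order, from the gene tables without nuclear copies; each point is 1 library and the line is the mean of 3. The rRNA points of replicate 3, at 11036 and 8829 TPM, stand above those of the other libraries, and mt-Co2 has the lowest mean, 204 TPM.

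The 2 tables were compared over all genes as well. The ratio of second-table to gene-table counts had a median of 1.41, 1.82 and 1.37 over the 15876 genes whose counts averaged 10 or more in replicates 1, 2 and 3, and of 1.11, 1.55 and 1.15 over the 13 mRNAs. Past 2-fold from the all-gene median in either direction were 12.7% of all genes and 4 of the 15 members that had such a mean count, namely mt-Co2, mt-Atp6, mt-Co3 and mt-Nd4l. All 4 were higher in the second table. With copies added to both tables, the median ratio over the 13 mRNAs was 1.07, 1.38 and 1.14.

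Each library was then set against the other two in the gene tables on TMM-scaled CPM, taking a gene as past the threshold where it was at least 2-fold from both. Of the 37 members, 15 had a mean count of at least 10 and were measured, namely the 13 mRNAs and 2 rRNAs. In replicate 3, mt-Rnr1 and mt-Rnr2 were above, as were 1.69% of all genes, and 0 of 15 members were below, where 1.74% of all genes were. In replicate 2, mt-Atp6 and mt-Atp8 were above, as were 0.983% of all genes. The TMM-scaled CPM of mt-Atp6 was 1116 in replicate 2, against 357 in replicate 1 and 340.2 in replicate 3. With its copy added it was 6923, against 4359 and 2377, which is not past 2-fold from replicate 1. mt-Rnr2 was the only member below in replicate 2, where 2.56% of all genes were. In replicate 1, 0 of 15 members were above and 0 below, where 5.07% of all genes were above and 3.51% below.

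With copies added, replicate 3 was the lowest library for 13 of 13 mRNAs, by less than 2-fold from the nearer of the others, and replicate 2 the highest for 11 of 13. mt-Co2 and mt-Co3, the other two, were highest in replicate 1. Against the geometric mean of the other libraries, the median log2 difference of the 13 mRNAs, without copies, was -0.89 in replicate 3, 0.85 in replicate 2 and 0.08 in replicate 1. Over all 15876 genes the same median lay within 0.02 of 0 in each library. Replicate 2 differs from the other libraries in RNA input, and replicate 3 in fragment length as taken from the gene tables. Effective lengths in the second tables, as given above for mt-Nd1, set replicate 2 apart instead. The part of these differences in the values was not tested.

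The 22 tRNAs are 59 to 75 nucleotides long, shorter than the size range of 250 to 400 in the labels. Mean fragment lengths by effective length, 228, 222 and 187 nucleotides in replicates 1, 2 and 3, also lie below that range. In the gene tables all 22 had an effective length of 0 and 0 counts, which says nothing of their abundance. In the second table they had 1501, 2934 and 1792 estimated counts in all in replicates 1, 2 and 3, or 59.2, 96.8 and 58.5 CPM. The 8 tRNA genes on the minus strand took 89.2% ± 7.21 of these (SD, n = 3), with 94.6%, 81.0% and 91.9% in the 3 libraries. The 6 tRNAs with the highest mean were all of that strand. Their sequences, from the GENCODE M21 transcripts, are shown 5′ to 3′ in DNA letters with the anticodon in capitals.
mt-Ts1, serine, chrM:6870-6938: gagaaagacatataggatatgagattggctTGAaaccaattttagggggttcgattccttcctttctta
mt-Tp, proline, chrM:15356-15422: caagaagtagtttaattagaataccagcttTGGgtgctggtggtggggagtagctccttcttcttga
mt-Te, glutamate, chrM:14071-14139: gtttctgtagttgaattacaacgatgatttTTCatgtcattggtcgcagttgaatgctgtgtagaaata
mt-Tc, cysteine, chrM:5192-5257: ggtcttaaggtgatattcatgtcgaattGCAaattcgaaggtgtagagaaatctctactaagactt
mt-Tn, asparagine, chrM:5089-5159: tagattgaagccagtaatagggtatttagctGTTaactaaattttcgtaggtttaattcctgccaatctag
mt-Ty, tyrosine, chrM:5260-5326: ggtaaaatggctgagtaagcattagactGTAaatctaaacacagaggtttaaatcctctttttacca
Of these, mt-Tn, mt-Tc and mt-Ty lie in a run of minus-strand tRNAs before mt-Co1, and mt-Te adjoins mt-Nd6 on the same strand.

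mt-Ts1, which overlaps the 3′ end of mt-Co1 by 3 bases, had 553, 494 and 683 estimated counts in replicates 1, 2 and 3. mt-Tp, at the end of the annotated genes, had 474, 458 and 311. mt-Te, between mt-Nd6 and mt-Cytb, had 200, 243 and 247. These 3 tRNAs stood in the same order of counts in every library. The other 3 were highest in replicate 2. mt-Tc had 504 counts in replicate 2, against 85 in replicate 1 and 233 in replicate 3. mt-Tn had 382 in replicate 2, against 42 and 86, and mt-Ty 223 in replicate 2, against 47 and 51.

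The other 2 minus-strand tRNAs were lower, with 11, 56 and 25 counts for mt-Ta (alanine) and 8, 16 and 11 for mt-Tq (glutamine) in replicates 1, 2 and 3. The 14 plus-strand tRNAs lay between 0 and 87 counts in any library. The highest of them were mt-Th (histidine) with 9, 86 and 22 counts and mt-Tl1 (leucine) with 6, 58 and 30. mt-Tr (arginine), mt-Ts2 (serine), mt-Tm (methionine), mt-Tl2 (leucine), mt-Tk (lysine), mt-Tg (glycine) and mt-Ti (isoleucine) had means between 12 and 30 counts. mt-Tw (tryptophan), mt-Td (aspartate), mt-Tf (phenylalanine), mt-Tt (threonine) and mt-Tv (valine) had means between 3.67 and 8.33. Replicate 2 was the highest library for 12 of the 14, while mt-Tf had 11 counts in replicate 1, against 5 and 4. The second table also gave tRNAs a longer effective length in replicate 2. It was 13.1, 29.5 and 13.5 nucleotides for mt-Th and 12.9, 29.1 and 13.5 for mt-Tc in replicates 1, 2 and 3. The part of effective length in these counts was not tested. A count of 0, as mt-Tt had in replicate 1, allows up to 3 counts. The genes are shorter than the mean fragment of each library and strand is not stated to be used, so these values are no measure of mature tRNA.

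**Figure D5:**
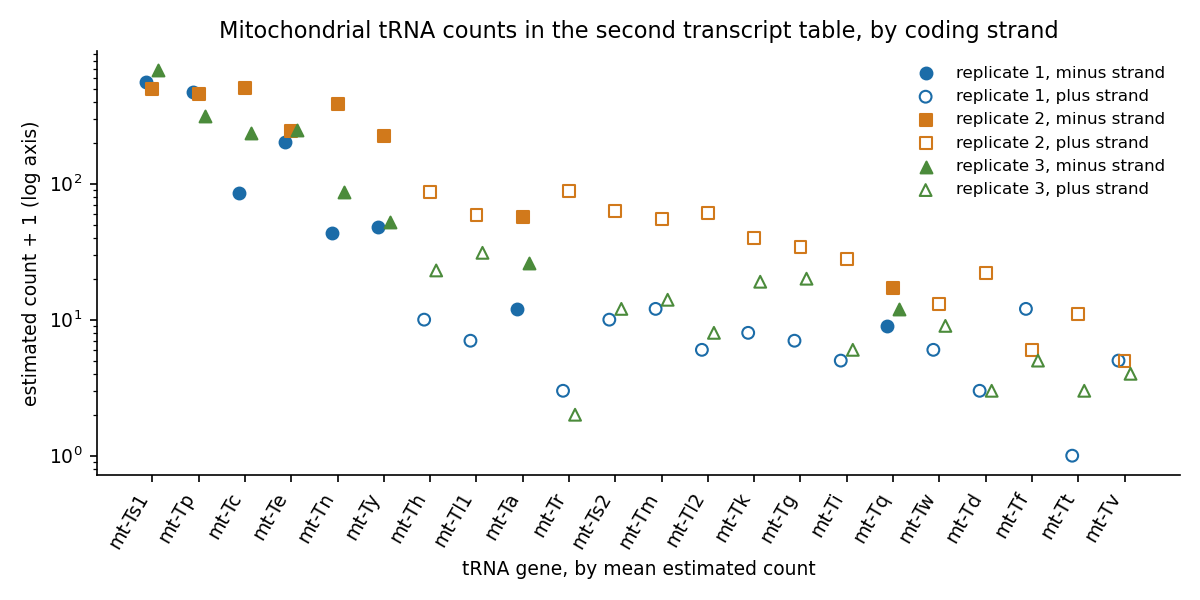
Estimated count + 1 (log axis) of the 22 mitochondrial tRNAs in the second transcript table, ordered by mean; filled points are genes on the minus strand, open points genes on the plus strand, and each point is 1 library. The 6 genes with the highest means are all on the minus strand, and the plus-strand genes stay at or below 87 counts.

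Mitochondrial mRNAs were compared with nuclear-encoded subunits of the respiratory chain and ATP synthase, to set their levels side by side. The nuclear list includes complex II, of which none of the 13 mRNAs encodes a subunit. The median mRNA was at 4385, 6567 and 2061 TPM in replicates 1, 2 and 3, against 9.61, 9.14 and 8.44 TPM for the median of 74 nuclear-encoded subunits. The log2 difference of the medians was 8.74 ± 0.78 (SD, n = 3), a fold of 452, 711 and 241 in the 3 libraries. All 13 mRNAs lay above every nuclear-encoded subunit in each library. The lowest, mt-Co2, had a mean of 204 TPM without its copy, against 65.1 ± 21.95 TPM for the highest nuclear-encoded subunit, Atp5b, the catalytic subunit of ATP synthase. Next among these were Cox4i1, a subunit of complex IV, at 40.3 ± 3.81 TPM and Sdha, the flavin subunit of complex II, at 40.1 ± 6.42 TPM. The lowest were the complex I subunits Ndufb4, Ndufc1 and Ndufb6 at 3.27 ± 0.386, 2.40 ± 0.575 and 2.21 ± 0.630 TPM. Levels of nuclear and mitochondrial genes in a nuclear fraction are of RNA from different compartments, and how much of each the fraction held was not measured.

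Nuclear-encoded subunits had smaller median differences between libraries, of the opposite sign in replicates 2 and 3. In replicate 3 their median log2 difference from the other libraries was 0.19, against -0.89 for the mitochondrial mRNAs, and in replicate 2 it was -0.26, against 0.85. In replicate 3, 1 of 74 was at least 2-fold above both other libraries, where 1.69% of all genes were. This was Atp5k, with 83 counts, against 31 in each of the others. In each other combination of library and direction it was 0 of 74, against 0.983% to 5.07% of all genes. A further list of 35 nuclear genes covered copying, processing and turnover of mitochondrial RNA and DNA, and regulators of nuclear transcription such as Ppargc1a. Of these 35, 34 had a mean count of at least 10. In each library and direction 0 of 34 were past 2-fold, where the share of all genes was 0.983% to 5.07%. The median of the 35 was 5.11 ± 0.792 TPM (SD, n = 3). The highest were Polg, the mitochondrial DNA polymerase, at 20.99 ± 8.27 TPM, Fastk at 20.98 ± 2.94 TPM and the termination factor family member Mterf3 at 18.8 ± 5.58 TPM. The lowest were Tfam, which packages mitochondrial DNA and starts its transcription, at 1.75 ± 0.299 TPM, Mterf2 at 0.733 ± 0.313 TPM and the coactivator Ppargc1a at 0.0367 ± 0.0473 TPM. The RNA polymerase Polrmt, named after its values were seen, was at 8.55 ± 1.80 TPM.

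The labelled cell type was checked against marker genes. All 8 macrophage markers were measured, from the lysozyme gene Lyz2 at 1978 ± 377 TPM to the Fc receptor gene Fcgr1 at 32.3 ± 1.71 TPM (SD, n = 3). Their summed level was 2755, 3760 and 3213 TPM in replicates 1, 2 and 3. In the gene tables, the highest of 18 markers of T, B, endothelial, erythroid and fibroblast cells and neutrophils was Cdh5 at 0.370 ± 0.380 TPM, and Cd3e and Ly6g had 0 counts in every library. The summed level of any such list was between 0.0200 and 0.850 TPM in any library of the gene tables. In the second tables the T cell list was higher, at 2.95, 7.62 and 0.606 TPM in replicates 1, 2 and 3, nearly all from Cd3d, against 1071, 2273 and 464 TPM for the macrophage list. The other lists stayed at or below 0.999 TPM there. In bulk RNA, fewer cells of a type and less RNA per cell cannot be told apart.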

How the data were processed

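RNA of the nuclear fraction was sequenced in 3 libraries of 1 group. Per the file headers, the deposited gene tables hold expected counts and TPM, with columns as RSEM names them, and a posterior SD that was treated as a score. The second transcript tables, with columns as kallisto names them, hold estimated counts and TPM deposited by the authors and were summed by gene here. Notes deposited with each library name mm10 and GENCODE M21. No version of a program is given in the labels, headers or notes read. Rows naming no annotated gene, 1.24%, 0.372% and 0.0641% of counts in replicates 1 to 3, were left out.

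Members and lists were chosen with earlier results of these data known. Genes named are all members, the 3 highest and 3 lowest of each list by mean TPM, and the nuclear copies with most counts; others are marked. Nuclear copies are annotated pseudogenes outside chromosome M that matched its transcripts at 90% identity or more over 80% of their length (blastn 2.17.0), 16 in all. Expected counts were rounded to whole numbers for log2 CPM (edgeR 4.0.16, prior count 0.5, TMM factors 1.07, 1.02 and 0.921). Genes had a mean count of at least 10. Folds compare single libraries without a test. Ratios of TPM used log2(TPM + 0.1), which understates differences of low genes, and the exact sign-flip permutation test, of which 2 were made. The calls were run on simulated data with planted changes larger than the threshold. That run checks the code and does not measure the error of the calls in these libraries. Mean fragment length was taken from long genes in the gene tables, as their length minus their effective length. Sequence of chromosome M was read from GENCODE M21 transcripts. In DESeq2 1.42.0 only size factors were used.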

Additional observations from a re-analysis of the deposited data

How the results depend on the processing

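Of the values that answer a comparison, 67 under other settings kept their direction and, for values without a test, stayed within 1 SD of the libraries or, for counts, within 1.5 times; 9 moved and 2 turned. The rRNA values moved within a wide SD, and the log2 ratio of mt-Rnr2 to mt-Rnr1 was -0.36 in the second tables. Not divided by length (CPM in place of TPM), the log2 ratio of mt-Nd6 to mt-Nd5 turned to -1.67 and that of mt-Rnr2 to mt-Rnr1 to 0.0730; these values leave out length by construction. With nuclear pseudogene counts added, the share of all members was 8.91%. The summed tRNA count was 0 in the gene tables and a mean of 2076 in the second tables, which give tRNAs a length above 0.

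Past 2-fold below both other libraries in replicate 3 were 0 members with TMM or DESeq2 size factors and 3 with library totals, mt-Nd1, mt-Nd2 and mt-Nd4 (3.04% of all genes). At 1.5-fold, 7 members were below in replicate 3 (6.19% of all genes), 4 above in replicate 2 (4.29%) and 2 below in replicate 2 (6.65%). In the second tables, where 32 members had a mean count of at least 10, 7 were below in replicate 1, all tRNAs (2.58% of all genes), 9 above in replicate 2 (3.06%) and 2 below in replicate 2 (1.87%); the cause was not tested. Leaving out 1 library gave shares of 6.74% to 7.56% for all members, 5.08% to 7.47% for mRNAs and 0.0906% to 1.66% for rRNAs, the lowest without replicate 3, which decides the rRNA share. The log2 difference of mRNAs from nuclear-encoded subunits then lay between 8.37 and 9.15, that of mt-Nd6 from mt-Nd5 between 0.50 and 0.93, and that of mt-Rnr2 from mt-Rnr1 between -1.05 and -0.50. Ranks of the mRNAs by level moved most for mt-Co2, which had rank 13 by TPM and 2 by RPKM with copies, and mt-Atp8, with ranks 1 and 11; these rank settings were chosen after seeing the data. No paired analysis was possible because there is 1 group.

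Sequence shared with nuclear copies, the short length of tRNAs and mt-Atp8, and the unstated use of strand limit what these values show. How much each matters was not compared.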

Other observations

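Nuclear copies outside chromosome 1 held few counts. The 9 such pseudogenes, with 90.7% to 97.6% identity to mitochondrial genes, reached at most 93.1 expected counts in any library of the gene tables and 301 in the second tables. Gm13340, a copy of mt-Co1 on chromosome 2 with 97.6% identity over 1545 bases, had 9.09, 27.1 and 93.1 expected counts in replicates 1, 2 and 3, and was highest in replicate 3, where mt-Co1 was lowest. Gm13341, next to it and similar to mt-Co2, had 14.8, 41.9 and 28.5. Gm11512 on chromosome 11, also similar to mt-Co1, had 3, 0 and 2. The remaining 6 had 0 in every library of the gene tables. Where a model splits reads between gene and copy, a count of 0 sets no upper limit for the copy. In the second tables the same 6 had 6.02 to 35.3 estimated counts in replicate 2. In replicates 1 and 3, all of them except Gm11407 had at most 1 there.

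The split between gene and copy differed by library and by table. The gene's own share was higher in the second table in all 3 libraries for 5 of the 7 mRNAs with a chromosome 1 copy, mt-Co2, mt-Atp6, mt-Co3, mt-Nd3 and mt-Nd4l. Gm10222, the copy of mt-Nd4l, had 10697, 19656 and 4114 expected counts in the gene tables and 0 in all 3 second tables. Gm29216, the copy of part of mt-Co1, had 15098 estimated counts in the second table of replicate 2 and 0 and 18.3 in those of replicates 1 and 3, against 221, 75.4 and 0 expected counts in the gene tables of replicates 2, 1 and 3.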
